A study of Mus musculus with 36 samples.

Results

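Mogat1, Kcnk2, Rhbdl2, Ptchd4 and Fam71f1 were higher, and Wnk2, Trak2 and Inpp4a lower, in lung endothelial cells (ECs) of both transgenic mouse lines of this study, Prog-Tg and LA-Tg, than in WT ECs. These 8 genes were chosen by their measured expression, because Prog-Tg/WT and LA-Tg/WT shifted the same way, so their differences from WT are given as a description without a test. They are 8 of the 51826 genes in the count table and 8 of the 14584 genes that had enough counts to be tested. The thresholds of the study were an unadjusted p under 0.05 and a fold change over 1.5. By edgeR's quasi-likelihood test, 26 genes passed them in both comparisons in the same direction, 19 of them higher and 7 lower. The 8 genes are among these 26, and the other 18 are not described. The study itself used limma-voom, which here left 16 genes in all and 2 of the 8. Both comparisons use the same 3 WT libraries, so that any gene with an unusual WT value is pushed the same way in both.

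Prog-Tg mice carried Cdh5-tTA, a tetracycline-responsive activator under the VE-cadherin (Cdh5) promoter, with tetop-LA-G608G, a human lamin A minigene with the mutation of Hutchinson-Gilford progeria syndrome, from which both human wildtype lamin A and progerin are made. LA-Tg mice carried Cdh5-tTA with tetop-LA-Wt, the wildtype minigene, and WT mice were littermates. The mice were 10 to 15 days old by the sample labels. The parental tetop lines were on C57BL/6J and the driver line on FVB, and the mice were maintained on a mostly C57BL/6J background. The lung ECs were isolated on ICAM-2 beads and cultured to passage 3. Cultured cells of this kind had been away from blood flow and from the other cells of the lung since isolation. Each genotype had 3 libraries of poly(A) RNA. The p-values set a difference between genotypes against the spread between libraries within genotypes, estimated from all 9. The labels do not say whether the cells of a library were pooled from several mice.

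Library totals ran from 17961200 to 67602000 counts. Lmna was at 177 to 284 CPM (counts scaled to the TMM-adjusted library total) for WT, 251 to 421 for LA-Tg and 275 to 548 for Prog-Tg, and whether reads of the human minigene were counted there was not tested. The endothelial markers Cdh5 (1469 to 4040 CPM) and Pecam1 were high in every library, but Vwf reached at most 164 counts. Of 12 endothelial markers, 10 had a log2 fold change below 0 in Prog-Tg/WT (median -0.46) and 7 in LA-Tg/WT (median -0.04). Of these markers 0 passed the study thresholds in either comparison. Of 8 epithelial markers Krt18 reached 422 counts, Cdh1 15 and the others at most 4. The summed fibroblast markers ran from 110 to 424 CPM for WT, 23.4 to 623 for LA-Tg and 119 to 844 for Prog-Tg, with Dcn and Col1a1 the most abundant, and smooth muscle and pericyte markers from 4.15 to 420 CPM over all libraries. The part of these cells in any result was not tested. The sum of 7 lymphatic endothelial markers was low in LA-Tg replicate 2 (1477 CPM), Prog-Tg replicate 2 (1678 CPM) and Prog-Tg replicate 3 (2612 CPM) and between 5238 and 9375 CPM in the other 6 libraries. By the mean log2 CPM of the same markers Prog-Tg replicate 1 (6.84) was low too, beside 5.43 in LA-Tg replicate 2, 6.83 in Prog-Tg replicate 2, 7.79 in Prog-Tg replicate 3 and 8.81 to 9.88 in the other 5. Transcripts of the X-inactivation gene Xist and the Y-linked gene Ddx3y showed that the libraries also differed in sex. Ddx3y was at or near 0 in LA-Tg replicates 1 and 2 and Prog-Tg replicate 2, Xist was near 0 in WT replicate 1 and Prog-Tg replicates 1 and 3, and the other 3 libraries held both. In such bulk samples, fewer cells of a type and less RNA per cell cannot be told apart.

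The 8 genes do not form a known pathway. Mogat1 (monoacylglycerol acyltransferase) makes diacylglycerol, the precursor of storage fat and a signalling lipid. Kcnk2 (TREK-1) is a two-pore potassium channel opened by membrane stretch and by lipids. Rhbdl2 is a rhomboid protease that cuts other membrane proteins within the bilayer. Ptchd4 is a patched-domain membrane protein, described in human cells as a p53 target that restrains hedgehog signalling. Fam71f1, also called Garin1b, is known from mouse sperm, where it binds the Golgi GTPase Rab2 and is needed for the acrosome. Wnk2 belongs to the WNK kinases, which set chloride transport through Stk39 and Oxsr1. Trak2 links mitochondria to kinesin for transport, and Inpp4a removes the 4-phosphate from phosphatidylinositol 3,4-bisphosphate and so ends a branch of PI3-kinase signalling.

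**Figure D1:**
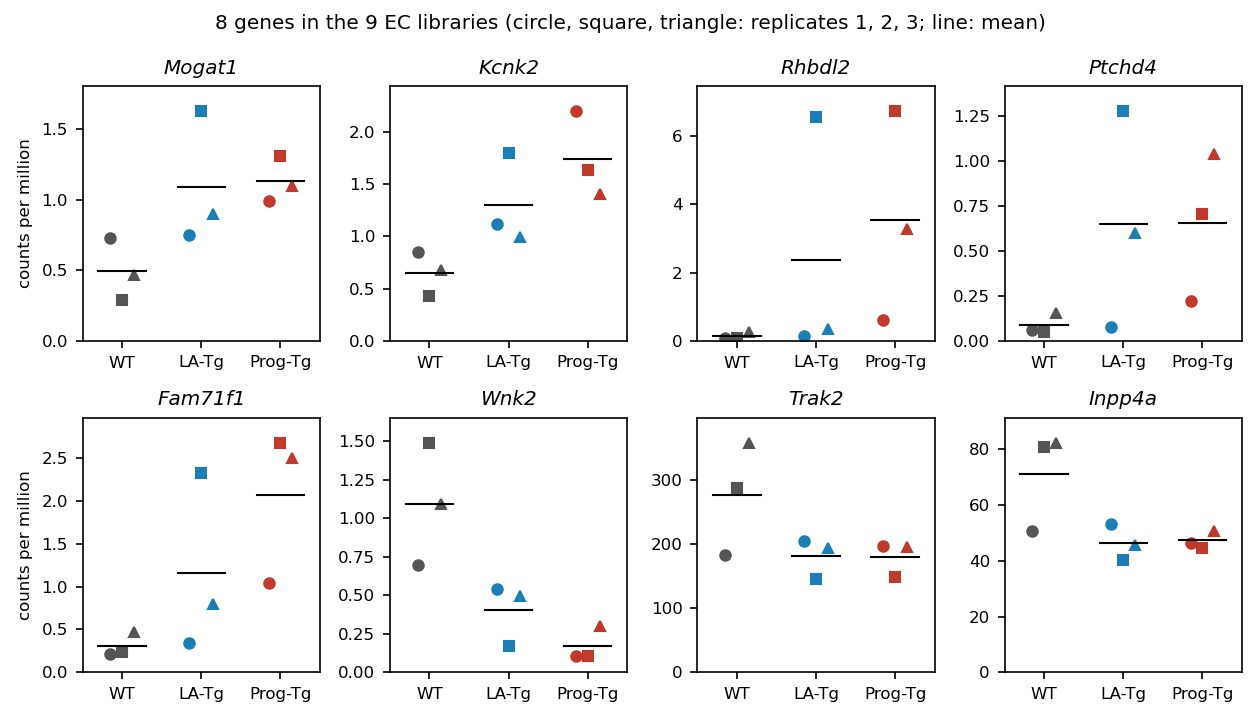
Level of each of the 8 genes in the 9 EC mRNA libraries, in CPM scaled by TMM (vertical axes start at 0), with replicates 1, 2 and 3 as circles, squares and triangles and a line at the mean of each genotype. In LA-Tg the square, replicate 2, is the highest point for the 5 upper-set genes (6.56 for Rhbdl2) and the lowest for Wnk2, Trak2 and Inpp4a (145 for Trak2).

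Per kilobase of exon the genes covered a wide range of levels. In WT, Trak2 stood at 39.0 CPM per kb and Inpp4a at 6.85, whereas Mogat1 (0.319), Fam71f1 (0.189), Kcnk2 (0.132), Wnk2 (0.129), Rhbdl2 (0.0487) and Ptchd4 (0.0197) were all low. In Prog-Tg the order among the low genes was Fam71f1 (1.27 CPM per kb), Rhbdl2 (1.15), Mogat1 (0.726), Kcnk2 (0.353), Ptchd4 (0.146) and Wnk2 (0.0205). In LA-Tg it was Rhbdl2 (0.767), Fam71f1 (0.709), Mogat1 (0.701), Kcnk2 (0.264), Ptchd4 (0.145) and Wnk2 (0.0479). Trak2 and Inpp4a were apart from each other and from the rest in every genotype. In WT the libraries of every other pair of neighbours in the order overlapped. In Prog-Tg Fam71f1 overlapped Rhbdl2 and Rhbdl2 overlapped Mogat1, while Mogat1, Kcnk2, Ptchd4 and Wnk2 did not overlap each other. In LA-Tg Mogat1 and Kcnk2 were apart, and the other neighbours overlapped.

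All 8 genes passed the study thresholds in both comparisons, a count fixed by the choice. Among all tested genes, 0.939% were higher and 1.82% lower at these thresholds in Prog-Tg/WT, and 0.35% higher and 0.329% lower in LA-Tg/WT. In Prog-Tg/WT, the 3 Prog-Tg libraries did not overlap the 3 WT libraries for Mogat1, Kcnk2, Rhbdl2, Ptchd4 and Fam71f1, all higher (6.56% of tested genes), nor for Wnk2, lower (7.17%). In LA-Tg/WT the groups did not overlap for Mogat1 and Kcnk2 (1.92% of tested genes on the higher side) and for Wnk2 (2.03% on the lower side). With edgeR's quasi-likelihood test and Benjamini-Hochberg adjustment over all 14584 genes, 0 genes had an adjusted p under 0.05 in Prog-Tg/WT and 0 in LA-Tg/WT. The genes with an unadjusted p under 0.05 numbered 496 and 121, DESeq2 gave 2 and 0 genes past the adjusted threshold, and limma-voom gave 0 and 0.

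Mogat1 (chromosome 1, 78510991 to 78538173, plus strand, GRCm38) was at 0.731, 0.288 and 0.469 CPM in WT replicates 1 to 3. It was at 0.753, 1.63 and 0.899 CPM in LA-Tg and at 0.988, 1.31 and 1.10 CPM in Prog-Tg. These levels rest on 24, 6 and 9 counts for WT, 29, 28 and 18 for LA-Tg and 18, 24 and 76 for Prog-Tg. Every transgenic library lay above every WT library, but LA-Tg replicate 1 exceeded WT replicate 1 by only a small margin. The log2 fold change was 1.16 (SE 0.47) in Prog-Tg/WT and 1.10 (SE 0.47) in LA-Tg/WT, and the latter was 0.70 without LA-Tg replicate 2. The paralogue Mogat2, which catalyses the same step, was higher on average in both lines (1.69, 3.46 and 3.996 CPM in WT, LA-Tg and Prog-Tg), with log2 fold changes of 1.22 (SE 0.69) in Prog-Tg and 1.01 (SE 0.69) in LA-Tg that did not pass the thresholds.

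Of 29 other tested genes of acylglycerol synthesis and breakdown, 0 were higher and 3 lower at the study thresholds in Prog-Tg/WT, and 0 passed in LA-Tg/WT. Their median log2 fold change was -0.09 and -0.03, beside -0.01 for all tested genes in both comparisons. The lower genes were Mgll, the monoacylglycerol lipase that removes the substrate of Mogat1 (140 CPM for WT, 86.9 for LA-Tg and 19.1 for Prog-Tg), Acsl1, which activates fatty acids, and the fatty acid transporter Cd36. Mgll was at 3.89 CPM in LA-Tg replicate 2 and 4.20 in Prog-Tg replicate 2, the lowest values of its 9 libraries. The count of 3 became 0 if WT replicate 2, Prog-Tg replicate 2 or Prog-Tg replicate 3 was dropped, and 2 genes were higher in Prog-Tg if WT replicate 1 or Prog-Tg replicate 1 was dropped. The lipid droplet coat gene Plin2 had a log2 fold change of 0.57 (SE 0.19) in Prog-Tg/WT and 0.42 (SE 0.19) in LA-Tg/WT and did not pass.

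Kcnk2 (chromosome 1, 189207930 to 189402273, minus strand) was at 0.853, 0.433 and 0.678 CPM for WT, 1.116, 1.80 and 0.999 CPM for LA-Tg and 2.20, 1.64 and 1.40 CPM for Prog-Tg. Its counts were 28, 9 and 13 for WT, 43, 31 and 20 for LA-Tg and 40, 30 and 97 for Prog-Tg. Every transgenic library lay above the WT libraries, and the highest was Prog-Tg replicate 1. On the log2 scale the difference was 1.39 (SE 0.41) in Prog-Tg/WT and 0.98 (SE 0.41) in LA-Tg/WT, or 0.68 in LA-Tg/WT without LA-Tg replicate 2.

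Only Kcnk5 and Kcnk6 of 13 other two-pore channels had enough counts to be tested, and both stayed inside the thresholds (0.25 and -0.11 in Prog-Tg/WT, -0.24 and -0.65 in LA-Tg/WT on the log2 scale). Of 13 other endothelial ion channels, 0 were higher and 2 lower in Prog-Tg/WT, and 0 were higher and 1 lower in LA-Tg/WT. In Prog-Tg these were the stretch-gated channel Piezo2 (-0.64, SE 0.21) and the calcium-activated potassium channel Kcnma1 (-1.96, SE 0.79), and in LA-Tg the cation channel Trpv4 (-0.94, SE 0.41). Piezo1, the main stretch-gated channel of ECs, was at 485, 451 and 429 CPM in WT, LA-Tg and Prog-Tg. The count of 2 became 0 if WT replicate 2, WT replicate 3 or Prog-Tg replicate 2 was dropped. The count of 1 became 2 if WT replicate 1 was dropped and 0 if any other library was.

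Rhbdl2 (chromosome 4, 123787874 to 123829904, plus strand) showed the widest spread within genotypes. WT libraries had 3, 2 and 5 counts, which is 0.0914, 0.0961 and 0.261 CPM. LA-Tg libraries had 6, 113 and 7 counts, or 0.156, 6.56 and 0.350 CPM. Prog-Tg libraries had 11, 123 and 226 counts, or 0.604, 6.71 and 3.27 CPM. LA-Tg replicates 1 and 3 lay in or next to the WT range, and LA-Tg replicate 2 alone matched the level of Prog-Tg replicate 2. Prog-Tg replicates 1, 2 and 3 were all above WT. The log2 fold change was 4.57 (SE 1.57) in Prog-Tg/WT and 3.97 (SE 1.55) in LA-Tg/WT, and without LA-Tg replicate 2 the LA-Tg value was 0.74.

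None of 6 other rhomboid family genes passed the thresholds in either comparison, and their log2 fold changes lay between -0.11 and 0.06. The mitochondrial rhomboid Parl was at 39.5, 39.3 and 40.8 CPM in WT, LA-Tg and Prog-Tg, and the inactive rhomboid Rhbdf2, which escorts the protease Adam17, at 67.3, 63.3 and 62.4 CPM. Of 6 genes for proteins reported, mostly in human cells, as rhomboid substrates, 0 passed in either direction. They include thrombomodulin (Thbd), the EC anticoagulant receptor, at 112, 103 and 105 CPM.

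Ptchd4 (chromosome 17, 42315947 to 42505077, plus strand) was the gene with the fewest counts in WT, 2, 1 and 3. LA-Tg libraries held 3, 22 and 12 counts and Prog-Tg libraries 4, 13 and 72. In CPM these were 0.0609, 0.0481 and 0.156 for WT, 0.0778, 1.28 and 0.599 for LA-Tg and 0.220, 0.709 and 1.04 for Prog-Tg. LA-Tg replicate 1 lay within the WT range, while the other LA-Tg libraries and all Prog-Tg libraries were above it. On the log2 scale the difference was 2.92 (SE 1.06) in Prog-Tg/WT and 2.82 (SE 1.08) in LA-Tg/WT, and the LA-Tg value was 1.85 without LA-Tg replicate 2.

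Ptchd4 belongs to 2 of the gene lists. Of 15 other hedgehog and patched-domain genes, 0 passed in either comparison, and at most 1 did in a direction when a library was dropped. Ptchd1, a patched-domain paralogue, was at 2.68, 0.336 and 0.522 CPM for WT, 2.67, 23.1 and 0.450 for LA-Tg and 3.29, 15.4 and 3.16 for Prog-Tg, so that replicate 2 was the highest library of both lines. The hedgehog receptor Ptch1 was at 81.6, 77.3 and 93.0 CPM in WT, LA-Tg and Prog-Tg. Of 28 other p53 target genes, 5 were higher and 0 lower in Prog-Tg/WT, and 1 was higher and 1 lower in LA-Tg/WT. Their median log2 fold change was 0.63 in Prog-Tg/WT, with 26 of 28 above 0, and 0.19 in LA-Tg/WT, with 23 of 28 above 0. The mean log2 CPM of the list was highest in LA-Tg replicate 2 (6.01), Prog-Tg replicate 2 (6.10) and Prog-Tg replicate 3 (5.93), the libraries with the lowest lymphatic sums, and 5.59 in Prog-Tg replicate 1. LA-Tg replicates 1 (5.01) and 3 (5.26) lay within the WT range of 4.89 to 5.38, and the part of the library difference was not tested.

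The 5 p53 targets higher in Prog-Tg were Mdm2, the ubiquitin ligase of p53 (1.02, SE 0.43), Ccng1 (0.94, SE 0.38), Gtse1 (1.08, SE 0.39), the death-associated membrane protein gene Perp (2.42, SE 0.87) and the phosphatase gene Ptprv (1.06, SE 0.45). Perp was also the gene higher in LA-Tg (2.14, SE 0.86), and Ptprv the gene lower there (-1.56, SE 0.50). Perp was at 3.87, 2.74 and 3.39 CPM for WT, 4.49, 35.1 and 4.65 for LA-Tg and 7.63, 30.7 and 15.3 for Prog-Tg, a layout like that of Rhbdl2. The count of 5 became 8 if LA-Tg replicate 2 was dropped, 3 for WT replicate 2, 1 for WT replicate 3, 0 for Prog-Tg replicate 2 and 2 for Prog-Tg replicate 3. In LA-Tg/WT the higher count became 0 if LA-Tg replicate 2, Prog-Tg replicate 3 or any of the WT libraries was dropped and 2 for LA-Tg replicate 1, and the lower count became 0 for LA-Tg replicate 1 or WT replicate 2.

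Fam71f1 (chromosome 6, 29319140 to 29336019, plus strand) had 7, 5 and 9 counts for WT, 13, 40 and 16 for LA-Tg and 19, 49 and 173 for Prog-Tg. In CPM these were 0.213, 0.240 and 0.469 for WT, 0.337, 2.32 and 0.799 for LA-Tg and 1.04, 2.67 and 2.4998 for Prog-Tg. All Prog-Tg libraries lay above WT, whereas LA-Tg replicate 1 fell between the WT libraries. The log2 fold change was 2.76 (SE 0.77) in Prog-Tg/WT and 1.89 (SE 0.76) in LA-Tg/WT, or 0.87 in LA-Tg/WT without LA-Tg replicate 2. Of 7 other tested genes of the Garin family, Rab2 and its Golgi partners, 0 passed in either comparison. The neighbouring paralogue Fam71f2 was at 0.446, 0.300 and 0.547 CPM in WT, LA-Tg and Prog-Tg, and Rab2a, which acts in traffic between the endoplasmic reticulum and the Golgi, at 196, 229 and 218 CPM.

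Wnk2 (chromosome 13, 49036303 to 49148014, minus strand) was the rarest transcript of the lower group. It had 23, 31 and 21 counts for WT, 21, 3 and 10 for LA-Tg and 2, 2 and 21 for Prog-Tg. The levels were 0.701, 1.49 and 1.10 CPM for WT, 0.545, 0.174 and 0.4995 for LA-Tg and 0.110, 0.109 and 0.303 for Prog-Tg. Every WT library lay above every transgenic library. On the log2 scale the difference was -2.49 (SE 0.61) in Prog-Tg/WT and -1.38 (SE 0.59) in LA-Tg/WT, and -1.06 in LA-Tg/WT without LA-Tg replicate 2.

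The paralogue Wnk1, the main WNK kinase of ECs, was expressed at 1078, 852 and 734 CPM in WT, LA-Tg and Prog-Tg, with log2 fold changes of -0.55 (SE 0.27) and -0.34 (SE 0.27) that did not pass. Per kilobase over all libraries it stood at 38.9 CPM, against 0.0659 for Wnk2. Of 18 other tested genes of the WNK pathway, 0 were higher and 1 lower in Prog-Tg/WT, and 0 passed in LA-Tg/WT. The lower gene was Cab39l, a scaffold of the kinases downstream of WNK (-0.90, SE 0.37). Stk39 and Oxsr1, those kinases, had log2 fold changes of 0.20 and -0.03 in Prog-Tg/WT. The count became 0 if WT replicate 1 or 2, LA-Tg replicate 3 or Prog-Tg replicate 2 or 3 was dropped, and 2 if WT replicate 3 or Prog-Tg replicate 1 was dropped.

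Trak2 (chromosome 1, 58900449 to 58973430, minus strand) was abundant, with 2495 to 13529 counts a library, so that counting error was small beside the spread between libraries. It was at 184, 287 and 357 CPM for WT, 205, 145 and 193 CPM for LA-Tg and 197, 148 and 195 CPM for Prog-Tg. The transgenic libraries overlapped WT because WT replicate 1 was lower than LA-Tg replicates 1 and 3 and Prog-Tg replicates 1 and 3. The log2 fold change was -0.62 (SE 0.26) in Prog-Tg/WT and -0.61 (SE 0.26) in LA-Tg/WT. Without WT replicate 3 these were -0.39 and -0.38, and without WT replicate 1 they were -0.84 and -0.83.

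The paralogue Trak1 was at 78.4, 71.8 and 83.7 CPM in WT, LA-Tg and Prog-Tg, and the Miro GTPases Rhot1 and Rhot2, which anchor Trak proteins to mitochondria, had log2 fold changes between -0.07 and 0.03 in both comparisons. Of 21 other tested genes of mitochondrial transport and shape, 0 passed in either comparison. Their median log2 fold change was 0.06 in Prog-Tg/WT and 0.01 in LA-Tg/WT.

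Inpp4a (chromosome 1, 37299865 to 37410736, plus strand) followed Trak2. It was at 50.7, 80.5 and 82.1 CPM for WT, 53.02, 40.3 and 45.6 CPM for LA-Tg and 46.3, 44.7 and 50.7 CPM for Prog-Tg, from 694 to 3511 counts a library. WT replicate 1 again lay at the level of the transgenic libraries, below LA-Tg replicate 1 and level with Prog-Tg replicate 3, and the other WT libraries were above all of them. On the log2 scale the difference was -0.59 (SE 0.20) in Prog-Tg/WT and -0.62 (SE 0.20) in LA-Tg/WT, close to the fold threshold of 0.58 on this scale.

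Inpp4b, the paralogue with the same enzyme activity, was at 142, 126 and 138 CPM in WT, LA-Tg and Prog-Tg. Of 23 other tested phosphoinositide phosphatases, 0 passed in either comparison. Of 11 phosphoinositide 3-kinase genes, 0 were higher and 1 lower in Prog-Tg/WT, and 0 passed in LA-Tg/WT. The lower gene was the class II kinase Pik3c2b (-1.82, SE 0.61), at 2.29, 1.17 and 0.638 CPM, and the count of 1 became 0 if WT replicate 2 or Prog-Tg replicate 1 was dropped.

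**Figure D2:**
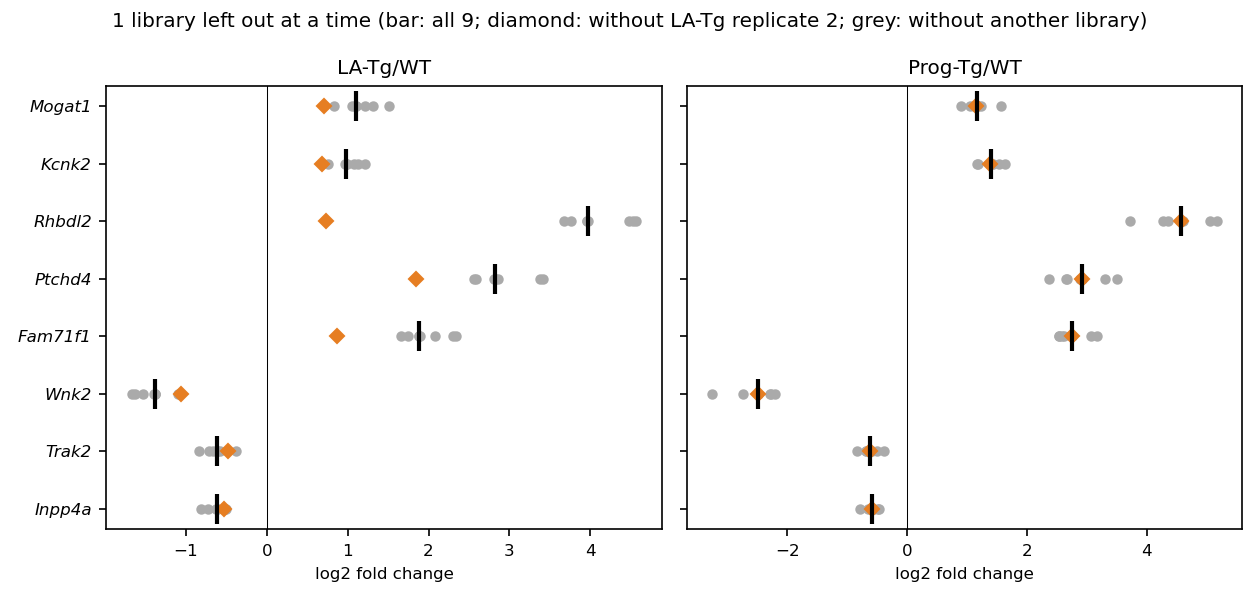
Log2 fold change of each gene in LA-Tg/WT and Prog-Tg/WT (horizontal axes) with all 9 libraries (black bar), without LA-Tg replicate 2 (orange diamond) and without each of the other libraries in turn (grey points). In LA-Tg/WT the diamond of Rhbdl2 lies at 0.74, far from the bar at 3.97. In both panels all values of a gene stay on the same side of 0, which the choice of the genes by direction favours.

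Across libraries, Rhbdl2, Fam71f1 and Ptchd4 were all highest in LA-Tg replicate 2, Prog-Tg replicate 2 and Prog-Tg replicate 3. These are the libraries with the lowest summed CPM of lymphatic markers, in which Prox1, the transcription factor that defines lymphatic ECs, was at 77.3, 107 and 295 CPM against 718 to 2375 CPM in the other 6. The sum of 12 pan-endothelial markers was 12546, 11761 and 7781 CPM in these 3 libraries and 9300 to 11742 CPM in the others, but their mean log2 CPM was lowest in the same 3 (8.48, 8.49 and 8.02, against 8.65 to 8.98). The part of these differences in the values of the 3 genes was not tested. Of the libraries without Ddx3y, LA-Tg replicate 1 had none of the high values and LA-Tg replicate 2 and Prog-Tg replicate 2 had them, and the part of sex was not tested.

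Leaving out LA-Tg replicate 2 and Prog-Tg replicate 2 together, a choice made after seeing the data, kept the direction of all 8 genes in both comparisons. The choice of the genes by direction favours this. The log2 fold changes in Prog-Tg/WT were then 3.74 for Rhbdl2, 2.90 for Ptchd4, 2.55 for Fam71f1, 1.43 for Kcnk2, 1.05 for Mogat1, -2.26 for Wnk2, -0.49 for Trak2 and -0.55 for Inpp4a. In LA-Tg/WT they were 0.74, 1.86, 0.87, 0.68, 0.71, -1.05, -0.47 and -0.53 in the same order of genes. None of the 8 then passed the study thresholds in both comparisons.

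The direct comparison of Prog-Tg with LA-Tg sets progerin with lamin A against the wildtype lamin A transgene. It was not a criterion for these genes, although genes chosen for shifting alike will tend to differ little here. With all 9 libraries, 0 of the 8 genes passed the study thresholds, beside 1.25% of all tested genes. The count was 3 without LA-Tg replicate 2 (Rhbdl2, Fam71f1 and Wnk2), 1 without Prog-Tg replicate 3 (Wnk2) and 1 without LA-Tg replicate 2 and Prog-Tg replicate 2 (Rhbdl2). Over all tested genes the counts in these 3 settings were 1308, 80 and 718, against 182 with all 9 libraries. The counts of the 8 therefore moved along with those of all genes. The adjusted p was 0.999 for each of the 8 by edgeR's quasi-likelihood test with Benjamini-Hochberg adjustment, the adjusted threshold was met by 0 of 14584 genes, and 250 were under 0.05 before adjustment. DESeq2 gave 7 genes past the adjusted threshold and limma-voom 0, and neither gave an unadjusted p under 0.05 for any of the 8. Prog-Tg and LA-Tg libraries overlapped for every gene.

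The intervals of these differences were wide for the rare transcripts. The log2 difference Prog-Tg/LA-Tg was 0.60 for Rhbdl2 (95% interval -2.35 to 3.55), 0.10 for Ptchd4 (-1.95 to 2.15), 0.87 for Fam71f1 (-0.75 to 2.49) and -1.10 for Wnk2 (-2.51 to 0.31). For Mogat1 it was 0.06 (-0.98 to 1.10) and for Kcnk2 0.42 (-0.50 to 1.33). The abundant genes had the narrowest intervals, -0.01 for Trak2 (-0.60 to 0.58) and 0.03 for Inpp4a (-0.43 to 0.49). That of Trak2 reached about as far as its difference from WT, and that of Inpp4a did not. The choice of the genes favours small differences here and large ones from WT, so this does not show that the lines are alike. Without LA-Tg replicate 2 the difference was 3.83 for Rhbdl2, 1.89 for Fam71f1, 1.08 for Ptchd4 and -1.43 for Wnk2. By the same edgeR test the unadjusted p was then 0.00865 for Rhbdl2, 0.0212 for Fam71f1 and 0.0458 for Wnk2, with adjusted p of 0.425, 0.425 and 0.431. LA-Tg replicate 2 held the highest LA-Tg values of Rhbdl2 and Fam71f1 and the lowest of Wnk2, so dropping it widens these differences. Its values also entered the choice of the genes, so these p-values are a description only. Without Prog-Tg replicate 3 the difference for Wnk2 was -1.87, with an unadjusted p of 0.0364 and an adjusted p of 0.9999 in edgeR.

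**Figure D3:**
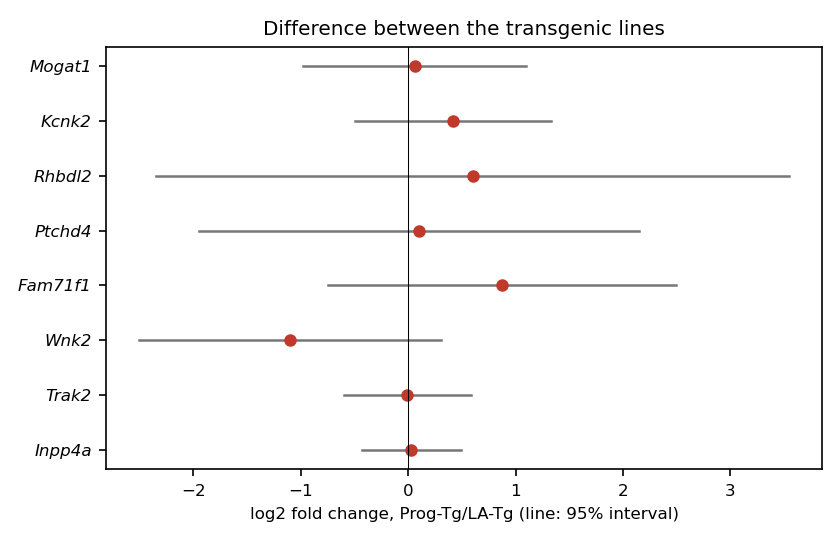
Log2 difference Prog-Tg/LA-Tg (horizontal axis) of each gene from the fit of all 9 libraries (points) with its 95% interval (lines). Every interval includes 0, and that of Rhbdl2 reaches from -2.35 to 3.55.

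The genes whose log2 CPM followed each of the 8 most closely over the 9 libraries were taken by Pearson's r, as a description. Txndc17 (r = 0.98), Ces2g (0.96) and Casq1 (0.96) were closest to Mogat1. Sele, the leukocyte adhesion receptor E-selectin (r = 0.94), Rbm45 (0.94) and Tmem171 (0.93) were closest to Kcnk2. Ufsp2, Lrrc3b and Alox5 (r = 0.98 each) were closest to Rhbdl2. Golt1b (r = 0.97), Acvr1 (0.97) and Cbr3 (0.96) were closest to Ptchd4, and Ufsp2 (r = 0.98), Pltp (0.98) and Rhbdl2 itself (0.97) to Fam71f1. Alox5, the lipoxygenase of leukotriene synthesis, was at 8.997 CPM in LA-Tg replicate 2, 8.399 in Prog-Tg replicate 2 and 3.19 in Prog-Tg replicate 3 and at most 0.988 CPM elsewhere.

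Wnt7a (r = 0.94), Tns1 (0.94) and Tyk2 (0.93) were closest to Wnk2. The Wnt ligand gene Wnt7a was at 2.47, 11.9 and 6.10 CPM for WT, 4.93, 0.406 and 2.05 for LA-Tg and 0.714, 0.164 and 1.30 for Prog-Tg. Prdm2 (r = 0.98), Plekho2 (0.96) and Gm10524 (0.95) were closest to Trak2, and Prdm2 (r = 0.96), Trak2 (0.95) and Ubr2 (0.94) to Inpp4a. Prdm2, which encodes a histone methyltransferase, was at 99.7, 137 and 143 CPM for WT, 104, 89.3 and 107 for LA-Tg and 105, 95.01 and 105 for Prog-Tg, so that WT replicate 1 was its lowest WT library, as for Trak2 and Inpp4a. The points share libraries and their composition.

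Trak2, Inpp4a, Mogat1 and Kcnk2 lie on chromosome 1, which holds 6.17% of the tested genes, at distances of many megabases from each other. None of the 16 nearest tested genes beside the 8 passed the study thresholds in either comparison with WT. Stradb starts 0.092 kb from the start of Trak2 on the opposite strand and had log2 fold changes of -0.44 (SE 0.30) in Prog-Tg/WT and -0.49 (SE 0.30) in LA-Tg/WT. Casp8, the initiator caspase gene on the other side of Trak2, had 0.42 (SE 0.22) in both. Calu, 12.05 kb from Fam71f1, had 0.44 (SE 0.31) and 0.42 (SE 0.31), and Farsb, 22.1 kb from Mogat1, 0.22 and 0.04. The strand setting of the counting was not given in the sources used here. BC035947, which shares 200 exon bases with Mogat1 on the other strand, and A430027H14Rik, which shares 604 with Kcnk2, were at 0 counts in every library, and no other annotated gene shares exon bases with any of the 8.

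Promoter sequence from RefSeq (GRCm38.p6), the 250 bases before the start of transcription, was matched for all 8 genes. Those of Rhbdl2, Ptchd4 and Fam71f1 are shown because these 3 genes shared their high libraries, and that of Inpp4a as an example of the lower genes. CG dinucleotides are in capitals, all other bases are in lower case and each sequence runs 5′ to 3′ on the gene's strand. The windows are chr4:123787625-123787874, chr17:42315697-42315946, chr6:29318890-29319139 and chr1:37299588-37299837, all on the plus strand.
Rhbdl2: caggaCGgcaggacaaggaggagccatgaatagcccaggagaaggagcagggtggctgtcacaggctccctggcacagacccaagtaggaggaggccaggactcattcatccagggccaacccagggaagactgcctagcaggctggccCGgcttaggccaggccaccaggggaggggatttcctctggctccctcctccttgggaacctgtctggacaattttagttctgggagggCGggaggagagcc
Ptchd4: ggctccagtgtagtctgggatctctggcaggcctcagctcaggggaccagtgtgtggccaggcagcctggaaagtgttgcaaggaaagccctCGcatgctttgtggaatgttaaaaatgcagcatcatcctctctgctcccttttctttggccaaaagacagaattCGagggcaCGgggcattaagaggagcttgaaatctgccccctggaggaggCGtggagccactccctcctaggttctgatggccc
Fam71f1: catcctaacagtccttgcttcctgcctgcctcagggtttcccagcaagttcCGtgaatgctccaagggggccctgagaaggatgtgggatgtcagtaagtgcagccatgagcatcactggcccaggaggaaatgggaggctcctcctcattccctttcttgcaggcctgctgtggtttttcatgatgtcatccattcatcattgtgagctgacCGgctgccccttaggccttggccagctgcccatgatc
Inpp4a: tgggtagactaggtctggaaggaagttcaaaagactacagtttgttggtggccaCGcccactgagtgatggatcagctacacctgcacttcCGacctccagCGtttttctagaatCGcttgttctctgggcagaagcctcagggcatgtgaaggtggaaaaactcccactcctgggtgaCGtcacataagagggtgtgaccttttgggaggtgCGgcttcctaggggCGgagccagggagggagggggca

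The windows of the 5 higher genes held 2 to 5 CG dinucleotides (Mogat1 2, Fam71f1 2, Rhbdl2 3, Ptchd4 4, Kcnk2 5), beside a median of 6 over 27025 genes. Wnk2 had 5, Inpp4a 7 and Trak2 21, and 83.9% of all windows had fewer than Trak2. Of the motifs searched on both strands, GGGCGG, a core of GC boxes, occurred once each in Rhbdl2, Trak2 and Inpp4a, and in 32.9% of all windows. CCAAT occurred once, in Wnk2, and in 34.5% of all windows. TATAAA (12.97% of all windows), TGANTCA (6.87%), the core of AP-1 sites, and the p53 half-site (7.18%) occurred in none of the 8. These are matches of letters in 1 window a gene and no more.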

How the data were processed

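Lung ECs of WT, LA-Tg and Prog-Tg mice (3 poly(A) libraries each) were grouped by the genotype in their labels. The members and gene lists were chosen with earlier results of these data known. The deposited values were raw counts per gene: the authors aligned reads to GRCm38 with STAR 2.5.1b and counted them with HTSeq 0.5.4p3, and their own tables of group means, fold changes and p-values were not used. Tables of microRNA counts hold none of the 8 genes and were not used. Of the gene identifiers, 99.6% were found in GENCODE M21, which gave positions and exon lengths.

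The fits used edgeR 4.0.16 (R 4.3.3). All 9 libraries were fitted together, after filterByExpr (minimum count 10, minimum total 15) and TMM scaling, with the quasi-likelihood F test and Benjamini-Hochberg adjustment over all genes tested. CPM are TMM-scaled, and log2 CPM used a prior count of 2. Genes named are the 8, the 3 most correlated with each, the nearest tested gene on each side, list genes that are paralogues or pass the study thresholds, Lmna, Cdh5 and cell markers. Other list genes named for their known role were chosen after their values were seen. Totals of 17961200 to 67602000 counts leave the rare transcripts at 1 to 226 counts a library, and counting error alone is large at the low end of this range. DESeq2 1.42.0, limma-voom (limma 3.58.1), other filters and scalings, 2-group fits, a replicate block and each library left out were tried. Same-numbered Prog-Tg and LA-Tg libraries deviated together (correlations of their deviations from group means 0.675, 0.630 and 0.350). For Prog-Tg and WT the correlations were 0.491, -0.0282 and 0.474, and for LA-Tg and WT 0.405, -0.361 and -0.0664. The main fit held genotype alone and did not pair libraries by number, and only the replicate block did. The script was tested on simulated data.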

Additional observations from a re-analysis of the deposited data

How the results depend on the processing

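The directions of the 8 genes against WT held in every alternative that gave a value, and their calls did not. The genes were chosen by these directions in the same libraries, so kept directions were favoured by the choice and are no independent support. Of the 8, 5 passed the study thresholds in both comparisons with WT by DESeq2, 2 by limma-voom, 5 with no filter, 2 with only the groups compared and 2 with a replicate block, and 0 to 5 when 1 library was left out. It was 0 if LA-Tg replicate 2 or WT replicate 2 was dropped. Without LA-Tg replicate 2 and Prog-Tg replicate 2 it was 0, with 6 genes in all, where fewer libraries also lower the power. With only the groups compared, the filter removed Rhbdl2, Ptchd4 and Fam71f1 from LA-Tg/WT and Ptchd4 from Prog-Tg/WT, so they could not pass. Rhbdl2 and Fam71f1 passed the filter with Prog-Tg and WT alone, and entered LA-Tg/WT in the main fit only because the Prog-Tg libraries were included. Ptchd4 entered either comparison with WT only with both transgenic lines included. The 26 genes in both comparisons became 69 by DESeq2, 16 by limma-voom, 120 with no filter, 14 with the stricter filter (over 1 CPM in 3 libraries), 12 with only the groups compared and 7 to 115 with 1 library left out (75 for WT replicate 1, 115 for LA-Tg replicate 1, 7 for LA-Tg replicate 2, 11 for Prog-Tg replicate 2 and 15 for Prog-Tg replicate 3). RLE scaling and library size alone left 25 genes in all and 7 of the 8.

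The 403 genes past the study thresholds in Prog-Tg/WT became 661 by DESeq2, 1072 with no filter, 652 with only the groups compared and 125 (without WT replicate 2) to 911 (without LA-Tg replicate 2) with 1 library left out, with 692 for WT replicate 3, 830 for Prog-Tg replicate 1, 206 for Prog-Tg replicate 2 and 169 for Prog-Tg replicate 3. The 99 in LA-Tg/WT became 169 by DESeq2, 449 with no filter, 56 with the stricter filter, 61 with only the groups compared, 195 with the replicate block and 79 to 366 (without LA-Tg replicate 1) with 1 library left out, with 163 for WT replicate 1 or 2 and 150 for LA-Tg replicate 3. The 182 in Prog-Tg/LA-Tg became 297 by DESeq2, 300 by limma-voom, 708 with no filter, 718 without LA-Tg replicate 2 and Prog-Tg replicate 2, and 80 (Prog-Tg replicate 3 dropped) to 1308 (without LA-Tg replicate 2) with 1 library left out, with 326 for WT replicate 2 and 403 for Prog-Tg replicate 1. Genes past an adjusted p under 0.05 numbered 2 in Prog-Tg/WT and 7 in Prog-Tg/LA-Tg by DESeq2, and 0 to 1 in Prog-Tg/WT with 1 library left out. The causes were not tested.

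In Prog-Tg/LA-Tg the replicate block changed no call on the 8 genes (smallest adjusted p 0.909) and left 0 genes past the adjusted threshold. Differences near 0 changed sign. Trak2 was 0.00034 with the stricter filter and 0.0022 with library size alone, and Inpp4a was -0.02 without LA-Tg replicate 2 and Prog-Tg replicate 2. With 1 library left out the ranges were -0.15 to 0.46 for Mogat1, -0.24 to 3.83 for Rhbdl2, -0.47 to 1.08 for Ptchd4, -0.14 to 0.11 for Trak2 and -0.06 to 0.14 for Inpp4a (-0.062 without LA-Tg replicate 2). A fit without 1 library of a genotype assumes that the rest vary like the other groups. Ptchd4 and Wnk2 were not tested under the stricter filter, nor Wnk2 in Prog-Tg/LA-Tg with only the groups compared. Intervals cover the model's error for 3 libraries a genotype. Those of Ptchd4, Rhbdl2 and Wnk2 in Prog-Tg/LA-Tg leave room for differences of a few-fold, and the smallest detectable difference was not tested.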
